A study of Mus musculus with 6 samples.

Results

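The 8 genes described here are 3 genes for secreted neurotrophic factors (Bdnf, Ntf3 and Gdnf), 4 genes for their receptors (Ntrk2, Ntrk3, Gfra1 and Ret) and Tac1, the precursor gene of the neuropeptide substance P. They were chosen by name from the deposited gene count table, with the differences between mutant and control libraries in these data already known, Tac1 as a gene called higher. All 8 were found among the 22287 genes of the table, and all 8 passed the filter on low counts that left 17305 genes for testing. Because the mutant-to-control contrast was in view when the list was made, the fold changes of the 8 genes are descriptions, and no p-value is given for them. RNA was taken from the apical region, the site of root growth, of mandibular first molars of C57BL/6 mice at postnatal day 7.5. The mutant group carried Gli1-CreER;Arid1a fl/fl (3 libraries, replicates 3, 4 and 5), and the control group carried Arid1a fl/fl with no Cre (3 libraries, replicates 2, 3 and 5). All mice of both groups had been injected with tamoxifen at postnatal day 3.5 (1.5 mg for each 10 g). Gli1-CreER is a recombinase that tamoxifen activates in cells that express Gli1, so deletion of Arid1a, a chromatin remodelling subunit, is limited to those cells and their descendants. CreER was present in the mutants only, so its effects and those of the deletion cannot be told apart. Whether a library holds 1 animal or pooled teeth is not stated in the labels, so the spread is that between these libraries and may in part be technical.

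Neurotrophic factors are secreted proteins that keep neurons alive and guide their axons into target tissue. BDNF binds the receptor tyrosine kinase TrkB, encoded by Ntrk2, and NT-3, encoded by Ntf3, binds mainly TrkC, encoded by Ntrk3. GDNF binds GFRα1, a membrane-anchored co-receptor encoded by Gfra1, and the pair activates the receptor tyrosine kinase RET. In teeth, these factors are made by dental mesenchyme and are known for their link to the ingrowth of trigeminal sensory axons. Substance P is best known as a peptide of pain-sensing neurons, and Tac1 also yields neurokinin A.

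The libraries held 20453247 to 24255352 estimated gene counts. The targeted gene Arid1a was at 120, 134 and 130 CPM (the usual depth-scaled count unit, here with TMM factors) in the mutant libraries and at 210, 202 and 204 CPM in the control libraries, a log2 fold change of -0.68 (edgeR quasi-likelihood test, adjusted p = 0.0129). Without control replicate 2 or control replicate 3 the edgeR adjusted p of Arid1a was 0.0506 and 0.0529. Gli1, whose promoter drives CreER, averaged 37.3 ± 3.96 CPM in mutants and 88.6 ± 10.9 CPM in controls (SD, n = 3 each, edgeR adjusted p = 0.00753, and 0.0506 without control replicate 2). The odontoblast markers Dspp, Dmp1, Col1a1, Phex, Sp7, Bglap, Nes and Ibsp were all measured, so markers of the labelled tissue were present in all 6 libraries. Their summed level, most of it Col1a1, was 43602 to 53630 CPM in mutants and 49739 to 51522 CPM in controls. Dmp1, Sp7 and Bglap were higher and Nes lower in every mutant library than in any control library, and 0 of the 8 were called. Groups did not overlap for 21.3% of all tested genes. Epithelial markers, most of them enamel matrix transcripts by amount, summed to 68251 to 113543 CPM in mutants and 178957 to 278119 CPM in controls. This sum separates the groups completely, and its part in the results that follow was not tested. In bulk tissue, fewer cells of a type and less RNA per cell cannot be told apart for any gene described here.

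Promoter windows of Tac1, Bdnf and Gdnf are shown because these genes had the largest fold changes upward and the only one below -0.1, and because each window holds the letters CGTCA, an arm of the palindrome bound by CREB, a factor known to act on a Bdnf promoter in rat neurons. Each window runs from 250 bases before to 50 bases after a RefSeq transcription start (GRCm38.p6, 300 bases, plus strand), at chr6:7554811-7555110 for Tac1, chr2:109692186-109692485 for 1 of the 7 Bdnf starts and chr15:7809798-7810097 for 1 of the 2 Gdnf starts. Capitals mark CGTCA on the strand shown.
Tac1: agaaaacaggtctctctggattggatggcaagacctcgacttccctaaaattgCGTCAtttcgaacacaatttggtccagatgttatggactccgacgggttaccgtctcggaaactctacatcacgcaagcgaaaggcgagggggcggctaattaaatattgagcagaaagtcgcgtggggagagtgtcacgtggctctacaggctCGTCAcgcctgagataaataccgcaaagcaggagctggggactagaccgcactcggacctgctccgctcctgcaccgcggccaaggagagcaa
Bdnf: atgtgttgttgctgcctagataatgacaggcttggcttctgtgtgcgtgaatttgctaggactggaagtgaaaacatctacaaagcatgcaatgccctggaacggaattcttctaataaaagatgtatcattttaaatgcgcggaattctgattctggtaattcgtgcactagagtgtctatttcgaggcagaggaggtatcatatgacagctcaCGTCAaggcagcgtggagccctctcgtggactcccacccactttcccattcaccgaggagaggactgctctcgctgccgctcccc
Gdnf: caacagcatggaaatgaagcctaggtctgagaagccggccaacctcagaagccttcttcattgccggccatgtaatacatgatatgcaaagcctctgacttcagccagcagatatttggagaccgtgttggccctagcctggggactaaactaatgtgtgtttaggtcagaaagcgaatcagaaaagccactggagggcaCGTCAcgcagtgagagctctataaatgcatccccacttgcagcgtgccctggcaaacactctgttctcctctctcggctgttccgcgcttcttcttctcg

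The letters begin 197 and 43 bases before the start in Tac1, 35 bases before it in Bdnf and 50 bases before it in Gdnf. Windows were listed by RefSeq for 6 of the 8 genes, 14 windows in all, and for neither Ntrk3 nor Ret. The search read both strands (CGTCA or TGACG), and a match was in these 3 of the 14 windows and in 20.8% of the 32851 windows of the table, so the share in the 8 genes was near the background. The full site TGACGTCA, which contains these letters, was in 0 of the 14 windows and in 1.79% of the table. The GLI site TGGGTGGTC (or GACCACCCA) was in 0 of the 14 windows and in 0.253% of the table, and the AP-1 site TGAGTCA (or TGACTCA) was in 0 of them and in 5.2% of the table. Of genes described below, Calca, Nts and Gfra4 each had a window with CGTCA or TGACG, the Nts window also held the AP-1 letters, and the Pcsk6 window held none of the 4 motifs. A match is a description of letters and not of binding, and the gene counts do not tell which Bdnf or Gdnf start was used.

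Among the secreted products, Tac1 and Bdnf had higher values and Gdnf lower values in every mutant library than in any control library. Tac1 was at 9.20, 11.7 and 10.5 CPM in mutant replicates 3, 4 and 5, against 4.33, 3.70 and 4.57 CPM in control replicates 2, 3 and 5. The groups lay far apart, with counting intervals (95%, exact Poisson) that reached down to 8.07 CPM in the lowest mutant library and up to 5.66 CPM in the highest control library. The means were 10.5 ± 1.26 CPM in mutants and 4.20 ± 0.451 CPM in controls (SD, n = 3 each), a 2.50-fold difference (log2 fold change 1.32, SE 0.15).

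Bdnf, the gene of the TrkB ligand, was at 1.97, 2.34 and 1.84 CPM in the mutant libraries, against 0.875, 1.17 and 0.980 CPM in the control libraries. These levels rest on 42 to 54 counts a library in mutants and 18 to 25 counts in controls. The groups did not overlap, but the 95% counting intervals of single libraries did, down to 1.33 CPM in mutant replicate 5 and up to 1.73 CPM in control replicate 3. The log2 fold change was 1.02 (SE 0.24, 2.03-fold). The spread among libraries was about what counting gives, with a coefficient of variation of 12.6% in mutants and 14.8% in controls, where counting error is 14.3% and 22.2%.

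Ntf3, the gene of the TrkC ligand, was at 1.66, 2.08 and 1.40 CPM in the mutant libraries, against 1.36, 1.17 and 1.14 CPM in the control libraries. The lowest mutant value and the highest control value were almost equal, and they rested on 32 and 28 counts. Its log2 fold change was 0.48 (SE 0.25). Gdnf was at 5.22, 6.12 and 6.50 CPM in the mutant libraries, against 7.25, 8.29 and 8.11 CPM in the control libraries. Every mutant library lay below every control library, by a smaller distance than for Tac1. The means were 5.94 ± 0.658 CPM in mutants and 7.88 ± 0.556 CPM in controls (SD, n = 3 each), a log2 fold change of -0.41 (SE 0.14).

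Of the 8 genes, 1 was called in the fit over all genes, Tac1, and it was called higher. The share of all tested genes called higher was 0.659%, and the share called lower was 1.2%, at an adjusted p under 0.05. Groups did not overlap for 5 of the 8 genes (Tac1, Bdnf, Ntf3 and Ret higher, Gdnf lower), and for 21.3% of all tested genes. The list was made with these differences known, so nothing is read from either count. Of the 8 log2 fold changes 5 were positive, with a median of 0.22, where the median over all tested genes was 0.01. Tac1 kept a positive fold change in all 16 alternative fits, from 1.14 to 1.52, and was called in 13 of them. Its call was lost without control replicate 2 (log2 fold change 1.35) and without control replicate 3 (1.24). Bdnf ran from 0.59 to 1.22 over the same 16 fits and was called in 1 of them, the fit scaled to library totals alone. These fits reuse the libraries from which Tac1 was chosen as called higher. They describe how the values depend on settings and are no further support.

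**Figure D1:**
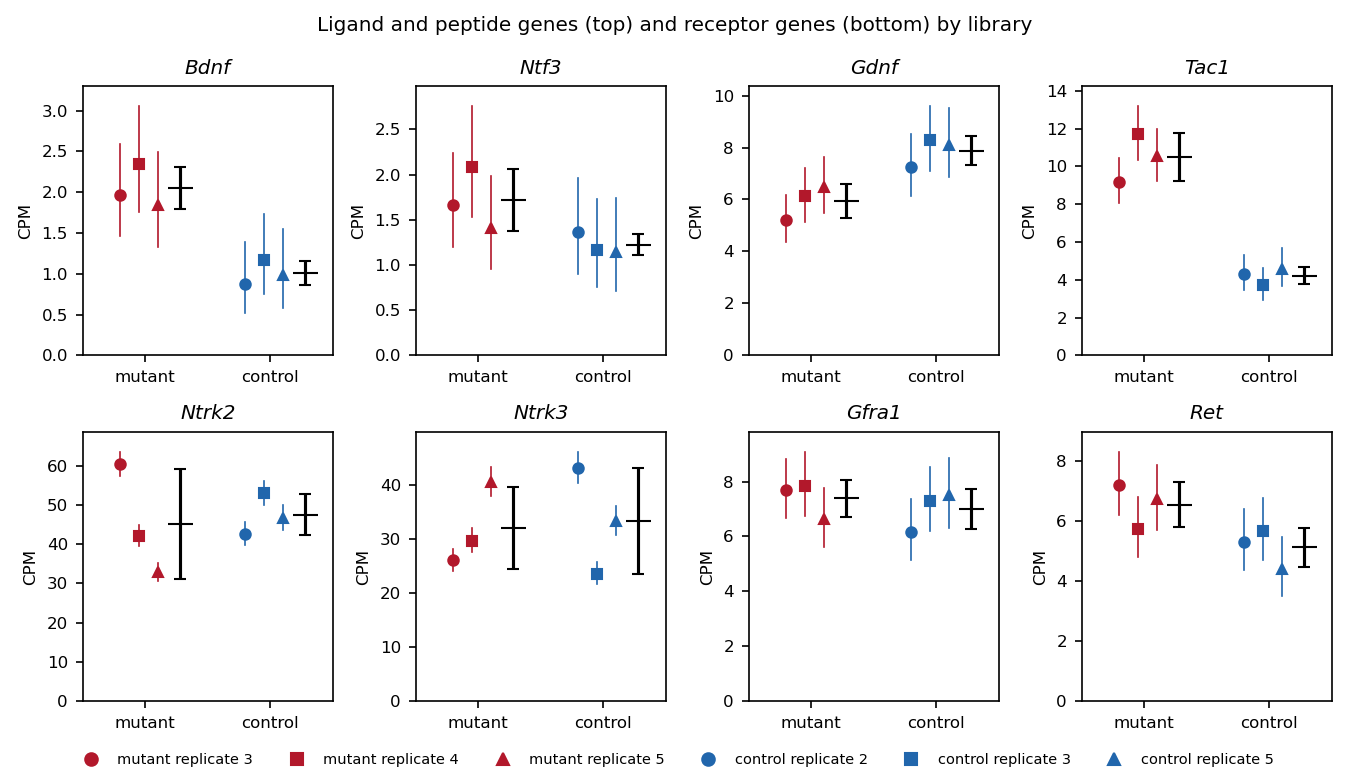
Level of each of the 8 genes in every library, in CPM on an axis from 0, with mutants at left; vertical coloured lines are 95% exact Poisson counting intervals and black bars are the mean ± SD of 3 libraries. The 3 mutant libraries stand above the 3 control libraries for Tac1 (9.20 to 11.7 against 3.70 to 4.57 CPM) and Bdnf and below them for Gdnf, while Ntrk2, Ntrk3 and Gfra1 overlap.

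Among the receptor genes, Ntrk2, Ntrk3 and Gfra1 overlapped between the groups, and Ret lay slightly higher in mutants. Ntrk2, the TrkB gene, was at 60.5, 42.1 and 32.8 CPM in mutant replicates 3, 4 and 5, against 42.7, 53.0 and 46.8 CPM in control replicates 2, 3 and 5. The mutant libraries held both the highest and the lowest value of the 6. Their coefficient of variation was 31.2%, where counting error is 3.02%, and the log2 fold change was -0.07 (SE 0.20). Ntrk3, the TrkC gene, was at 26.0, 29.7 and 40.6 CPM in the mutant libraries, against 43.1, 23.6 and 33.3 CPM in the control libraries, with a log2 fold change of -0.06 (SE 0.23). Here the controls held both extremes. The signs of the Ntrk2 and Ntrk3 differences turned positive with scaling to library totals alone, at 0.13 and 0.15.

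Ntrk2 and Ntrk3 ran in opposite order across libraries within each group. Mutant replicate 3 had the most Ntrk2 and the least Ntrk3 of the mutants, and mutant replicate 5 the reverse. Control replicate 3 had the most Ntrk2 and the least Ntrk3 of the controls, and control replicate 2 the reverse. Counts of Ntrk3 per 100 counts of Ntrk2, a ratio that no scaling of libraries alters, were 43.0, 70.5 and 124 in mutant replicates 3, 4 and 5, against 101, 44.5 and 71.1 in control replicates 2, 3 and 5. For this ratio the groups overlapped over nearly their whole range. Mutant replicate 3 and control replicate 3 were also the libraries with the most counts of their groups, at 24255352 and 22533024, and the part of depth in this order was not tested. Kidins220, which encodes a scaffold that binds Trk receptors, took the same order as Ntrk2 within each group. It was at 857, 606 and 446 CPM in the mutant libraries, against 541, 790 and 608 CPM in the control libraries.

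Gfra1, the GDNF co-receptor gene, was at 7.69, 7.85 and 6.63 CPM in the mutant libraries, against 6.18, 7.30 and 7.51 CPM in the control libraries. The groups overlapped, and the log2 fold change was 0.08 (SE 0.14). Ret, the gene of the signalling receptor, was at 7.19, 5.73 and 6.72 CPM in the mutant libraries, against 5.30, 5.66 and 4.41 CPM in the control libraries. Mutant replicate 4 lay barely above control replicate 3, and the log2 fold change was 0.35 (SE 0.16).

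Ratios within a library set the ligands beside their receptors. Counts of Bdnf per 100 counts of Ntrk2 were 3.26, 5.57 and 5.61 in mutant replicates 3, 4 and 5, against 2.05, 2.21 and 2.10 in control replicates 2, 3 and 5. All mutant ratios were above all control ratios, and the controls were much closer to each other. Counts of Gdnf per 100 counts of Gfra1 were 67.8, 77.9 and 98.0 in the mutant libraries, against 117, 113 and 108 in the control libraries. Counts of Gdnf per 100 counts of Ret were 72.6, 107 and 96.7 in the mutant libraries, against 137, 146 and 184 in the control libraries. Neither ratio overlapped between the groups, and both were lower in mutants. Counts of Ntf3 per 100 counts of Ntrk3 overlapped, at 6.39, 7.02 and 3.46 in the mutant libraries and 3.16, 4.96 and 3.44 in the control libraries. These ratios use the contrast with which the genes were chosen and carry no test.

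Levels can be compared between genes after division by exon length (the union of all GENCODE M21 exons, 1.71 kb for Ntf3 to 30.17 kb for Ntrk3). In mutants the order of CPM per kb was Tac1 (3.08 ± 0.370), Ntrk2 (2.34 ± 0.729), Gdnf (1.62 ± 0.179), Gfra1 (1.35 ± 0.121), Ntrk3 (1.06 ± 0.251), Ntf3 (1.0 ± 0.199), Ret (0.968 ± 0.110) and Bdnf (0.330 ± 0.0417; SD, n = 3). In controls the order was Ntrk2 (2.46 ± 0.270), Gdnf (2.15 ± 0.151), Gfra1 (1.28 ± 0.131), Tac1 (1.24 ± 0.133), Ntrk3 (1.10 ± 0.324), Ret (0.758 ± 0.0956), Ntf3 (0.715 ± 0.0696) and Bdnf (0.162 ± 0.0241; SD, n = 3). Most steps of these orders were within the spread. Libraries overlapped for 6 of the 7 neighbouring pairs in mutants, the exception being Ret and Bdnf. In controls they overlapped for 5 of the 7, the exceptions being Gdnf and Gfra1, and Ntf3 and Bdnf. Tac1 took the 1st place in mutants and the 4th in controls. The union counts exons of every listed isoform, so it lowers the values of genes with many, such as Ntrk3 with 20 transcripts, Bdnf, the lowest in both groups, with 11, and Ntrk2 with 10.

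**Figure D2:**
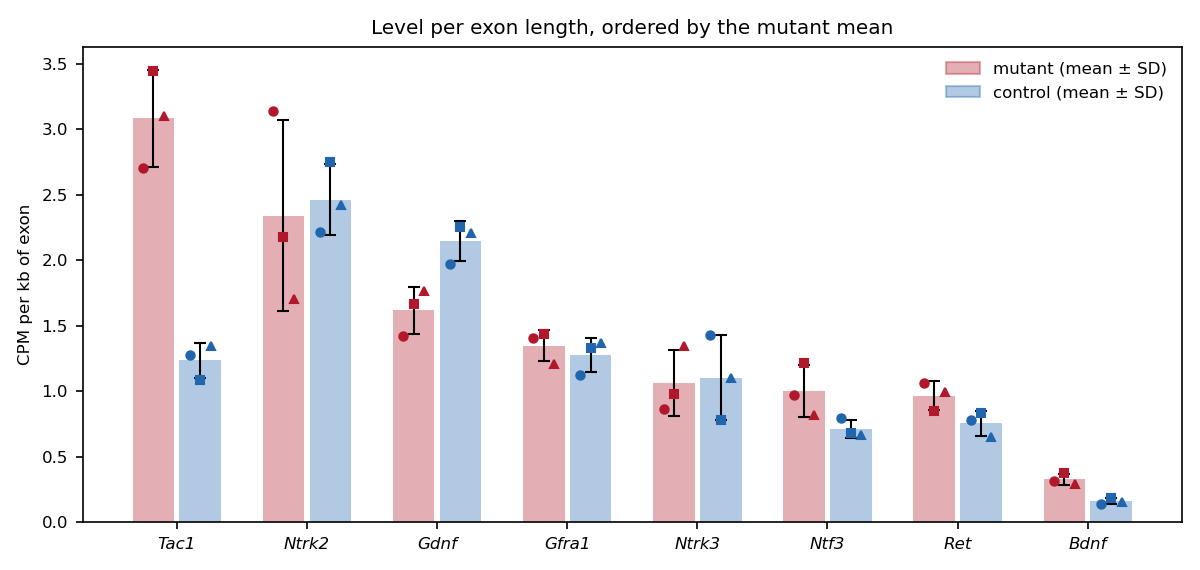
Level of the 8 genes per kb of exon (CPM per kb, axis from 0), ordered by the mutant mean; bars and black lines are the mean ± SD of 3 mutant (red, left) and 3 control (blue, right) libraries and symbols are single libraries. Tac1 stands at 3.08 ± 0.370 in mutants and 1.24 ± 0.133 in controls, and Bdnf is lowest in both groups.

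All 8 genes are protein-coding, and their names, chromosomes and starts matched GENCODE M21 on mm10. Tac1 lies at chr6:7554879-7565834 on the plus strand, and Bdnf at chr2:109674700-109727007 on the plus strand. Gdnf lies at chr15:7810846-7837575 and Ntrk2 at chr13:58806569-59133970, both on the plus strand. On the minus strand lie Ntf3 at chr6:126101412-126166910, Ret at chr6:118151745-118197718, Ntrk3 at chr7:78175959-78738012 and Gfra1 at chr19:58235604-58455909. The antisense gene Gm45346 shares 896 bases of exon with Bdnf, and the antisense gene Gm16277 shares 416 bases with Gfra1. Neither antisense gene has its own row in the count table. The sources used here do not state whether counting used strand, so antisense reads cannot be separated from those of Bdnf and Gfra1. No other gene shared exon bases with the remaining 6.

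Related genes that the list did not name were tested in the same fit. They fall into 5 lists of 60 genes, of which 48 were tested, 5 rose, 0 fell and 43 did not pass (adjusted p under 0.05, edgeR quasi-likelihood test over all genes). The share called higher was 0.659% over all tested genes. The 5 lists, and the marker lists below, were also made with earlier results of these data known. Nothing is therefore read from the number of risers beside that share, and the p-values of these genes are descriptions. The 5 risers were Nts, Calca, Penk, Gfra4 and Pcsk6. The median log2 fold change of the 48 genes was 0.08, and 30 were positive.

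Neuropeptide precursor genes other than Tac1 held 3 of the 5 risers among 7 tested, and their median log2 fold change was 1.38. Nts, the precursor gene of neurotensin, was at 5.33, 6.46 and 3.95 CPM in the mutant libraries, against 0.730, 0.796 and 0.544 CPM in the control libraries (log2 fold change 2.91, SE 0.27, edgeR adjusted p = 0.00742). Calca, which encodes calcitonin and the sensory peptide CGRP, was at 3.05, 5.38 and 3.12 CPM in the mutant libraries, against 1.31, 1.50 and 1.20 CPM in the control libraries (log2 fold change 1.52, SE 0.28, edgeR adjusted p = 0.0465). Reads can be shared between Calca and its close relative Calcb, which averaged 2.74 ± 0.947 CPM in mutants and 1.06 ± 0.333 CPM in controls and did not pass (SD, n = 3 each, edgeR adjusted p = 0.103). Penk, the enkephalin precursor gene, was at 25, 28.2 and 26.1 CPM in the mutant libraries, against 17.6, 16.7 and 20.5 CPM in the control libraries (log2 fold change 0.54, SE 0.10, edgeR adjusted p = 0.0499). Mutants stood above controls in every library for all 3. The somatostatin gene Sst, named after its values were seen, had a log2 fold change of 2.16 and did not pass (SE 0.58, edgeR adjusted p = 0.118). The tested genes Gal (log2 fold change 0.74, edgeR adjusted p = 0.473) and Nmb (-0.21, 0.879) overlapped between the groups and did not pass. Of the other 5 neuropeptide genes of the list, Npy, Vip, Adcyap1 and Pdyn were not among the rows analysed here and Cartpt was too low to test. Without 1 library the Nts call was lost in 1 of 6 fits, the one without control replicate 2 (edgeR adjusted p = 0.0506), while the Calca and Penk calls were lost in all 6, with adjusted p from 0.0520 to 0.149 and from 0.0659 to 0.177. The Penk call was also lost with RLE factors (0.0531), without the filter on low counts (0.0545), with limma-voom (0.0508) and with limma on the normalized table (0.0841). The Calca call was also lost with limma-voom (0.0741) and with limma on the normalized table (0.0652).

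In the tachykinin system, 0 of 4 tested genes other than Tac1 were called by edgeR's quasi-likelihood test, and 1, Mme, had an unadjusted p under 0.05. Over all 17305 tested genes, 2588 had an unadjusted p under 0.05 in that test. Tacr1, the substance P receptor gene, averaged 4.73 ± 1.06 CPM in mutants and 5.24 ± 0.602 CPM in controls (SD, n = 3 each, edgeR adjusted p = 0.797). Mme, whose product neprilysin cuts substance P, averaged 323 ± 24.9 CPM in mutants and 269 ± 31.2 CPM in controls (SD, n = 3 each, edgeR adjusted p = 0.283). Ece1, a peptidase gene that also acts on substance P, did not pass (log2 fold change 0.51, edgeR adjusted p = 0.655), and its mutant mean rested on mutant replicate 3, at 346 CPM. Without that library its log2 fold change was -0.21. The receptor genes Tacr2 and Tacr3 were at or under 0.272 CPM in all 6 libraries and were not tested.

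Of 14 other neurotrophin genes tested, 1 rose, 0 fell and 13 did not pass. The riser was Pcsk6, a proprotein convertase gene, at 33.7, 37.4 and 34.6 CPM in the mutant libraries, against 23.7, 22.7 and 23.7 CPM in the control libraries (log2 fold change 0.59, SE 0.08, edgeR adjusted p = 0.0180). Its call was lost in 5 of the 6 fits that leave out 1 library, with edgeR adjusted p from 0.0533 to 0.0874 there. The ligand gene Ntf5 averaged 6.64 ± 1.67 CPM in mutants and 10.3 ± 0.470 CPM in controls and did not pass (SD, n = 3 each, edgeR adjusted p = 0.149). Sorcs2, a sortilin family receptor gene, was lower in every mutant library than in any control library and did not pass (17.0 ± 2.02 CPM in mutants, 28.1 ± 5.87 CPM in controls, SD, n = 3 each, log2 fold change -0.72, edgeR adjusted p = 0.0835). DESeq2 called it lower, at an adjusted p of 0.00337. Ngfr, the gene of the receptor p75, averaged 16.2 ± 1.53 CPM in mutants and 16.0 ± 4.44 CPM in controls (SD, n = 3 each, edgeR adjusted p = 0.976). Of the abundant genes of the list, Kidins220, Maged1 and Furin, a convertase gene, did not pass (edgeR adjusted p = 0.978, 0.361 and 0.882).

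Of 11 other GDNF family genes tested, 1 rose, 0 fell and 10 did not pass. Gfra4, a co-receptor gene of the family, was at 7.03, 6.94 and 6.59 CPM in the mutant libraries, against 4.33, 3.84 and 4.03 CPM in the control libraries (log2 fold change 0.75, SE 0.13, edgeR adjusted p = 0.0398). The libraries of each group lay close together, yet its call was lost in all 6 fits that leave out 1 library, with edgeR adjusted p from 0.0804 to 0.155. Gfra3, the artemin co-receptor gene, averaged 2.83 ± 0.172 CPM in mutants and 1.44 ± 0.188 CPM in controls and did not pass (SD, n = 3 each, edgeR adjusted p = 0.0697). Gfra2, the neurturin co-receptor gene, averaged 97.6 ± 12.3 CPM in mutants and 101 ± 18.4 CPM in controls (SD, n = 3 each, edgeR adjusted p = 0.925). Ncam1, a cell adhesion gene whose product also binds GDNF, averaged 79.9 ± 4.07 CPM in mutants and 62.2 ± 2.09 CPM in controls and did not pass (SD, n = 3 each, edgeR adjusted p = 0.0534). Sdc3, a syndecan gene, and Grb10, an adaptor gene, did not pass (edgeR adjusted p = 0.405 and 0.0520). Of 12 neurotrophic cytokine genes tested, 0 rose and 0 fell in edgeR's quasi-likelihood test. An unadjusted p under 0.05 was found for 2 of them (Clcf1 and Lifr), and for 2588 of all 17305 tested genes. Ptn, Il6st and Mdk, the most abundant of them, had edgeR adjusted p = 0.829, 0.475 and 0.791.

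**Figure D3:**
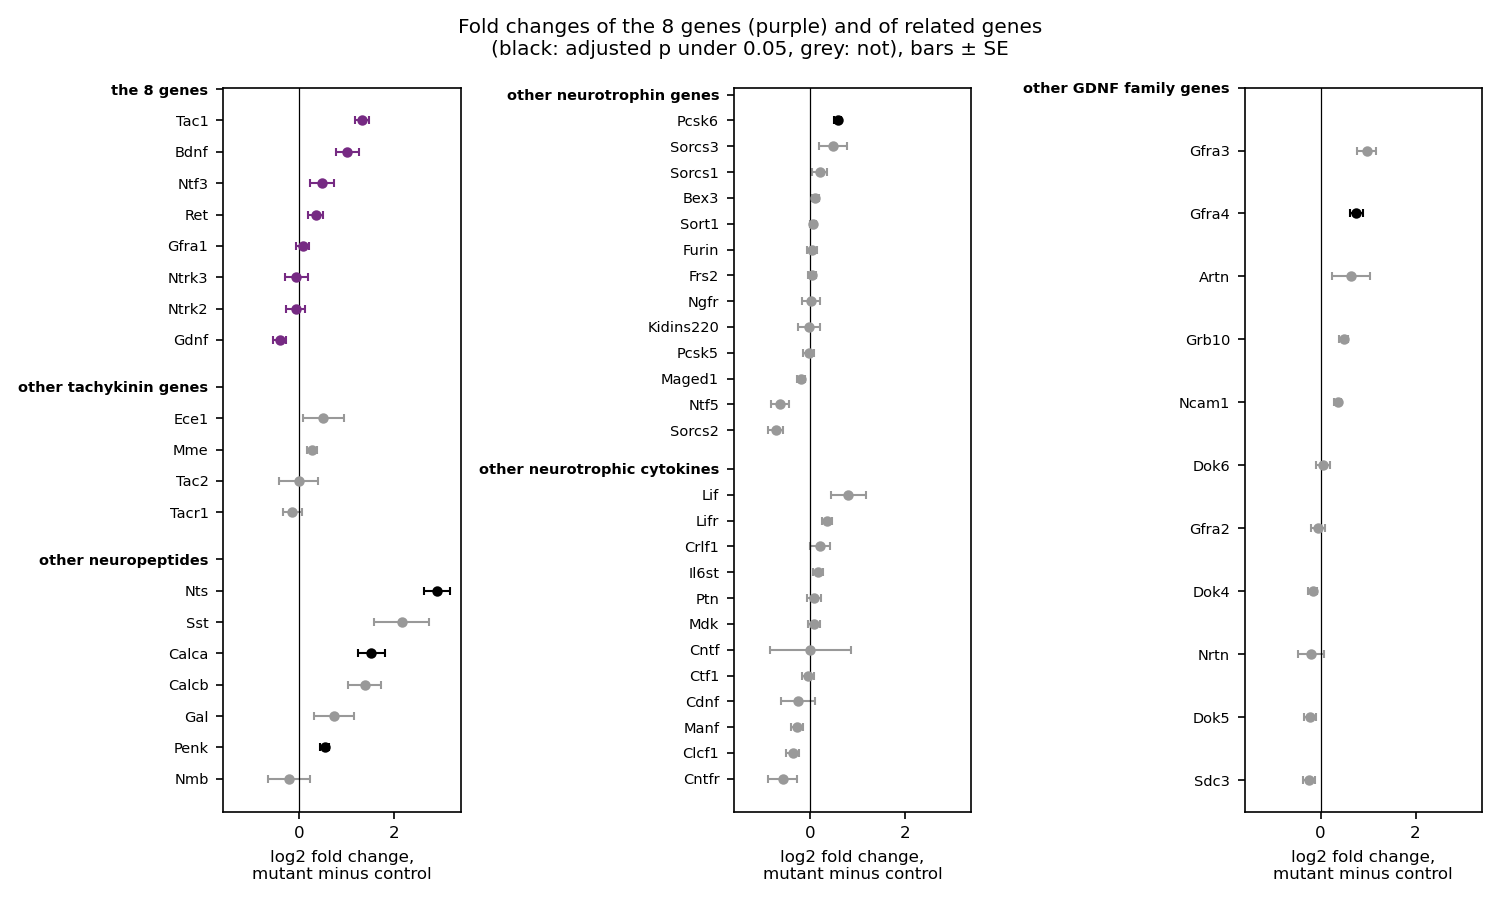
Log2 fold change (mutant minus control, horizontal axis) with its SE for the 8 genes (purple, no test) and for tested genes of the 5 related lists that are reported here, black where the adjusted p was under 0.05 and grey otherwise. Tac1 (1.32) and Bdnf (1.02) lead the 8 genes, and Nts (2.91), Calca (1.52), Penk (0.54), Gfra4 (0.75) and Pcsk6 (0.59) are the black points.

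The summed levels of neuron and glia markers were mostly higher in mutants, with single genes in both directions. For the counts at an unadjusted p under 0.05 that follow, the background was 2588 of all 17305 tested genes (edgeR quasi-likelihood test). For the calls at an adjusted p under 0.05, it was 0.659% of tested genes called higher and 1.2% called lower. Nothing is read from the counts beside these shares. Of 13 neuron markers 7 were tested and 0 were called by edgeR, 4 at an unadjusted p under 0.05, with a median log2 fold change of 0.58. Their summed level was 84.6 to 90.7 CPM in mutants and 71.3 to 81.3 CPM in controls, most of it Tubb3. Uchl1 ran the other way (4.93 ± 2.29 CPM in mutants, 10.6 ± 1.64 CPM in controls, SD, n = 3 each), as did Elavl4 (log2 fold change -0.35). Gap43 averaged 14.3 CPM in mutants and 9.61 CPM in controls, and Syt1 2.09 and 1.09 CPM, with every mutant library above every control library. Stmn2 averaged 11.4 CPM in mutants and 7.38 CPM in controls, and Snap25 2.46 and 1.49 CPM, with groups that overlapped. Neurofilament and other markers of mature neurons (Nefl, Nefm, Prph, Elavl3) were at most 0.618 CPM in any library, and the sensory neuron genes Pou4f1, Scn10a and Trpv1 at most 0.218 CPM. Of the same list, Isl1 and P2rx3 were also too low to test. Isl1 was at 0.434 to 0.773 CPM in mutants and 0.0973 to 0.375 CPM in controls. P2rx3 was at 0.132 to 0.309 CPM in mutants and 0.327 to 0.389 CPM in controls. Other genes of the sensory list were higher, with Piezo2 at 29.1 ± 4.01 CPM in mutants and 23.6 ± 2.43 CPM in controls, Scn9a at 11.8 ± 3.65 CPM in mutants and 7.18 ± 1.53 CPM in controls, and Avil at 3.5 ± 0.686 CPM in mutants and 2.30 ± 0.744 CPM in controls (SD, n = 3 each), none of them called. Of 9 sensory neuron markers 3 were tested and 0 were called by edgeR, 2 at an unadjusted p under 0.05, with sums of 37.7 to 49.7 CPM in mutants and 30.3 to 37.8 CPM in controls. Of 7 autonomic markers 3 were tested and 1 rose, Phox2a, a homeobox gene, at 14.6, 7.29 and 4.26 CPM in the mutant libraries, against 1.31, 2.25 and 1.20 CPM in the control libraries (log2 fold change 2.45, edgeR adjusted p = 0.0499). The Phox2a call was lost in 5 of the 6 fits that leave out 1 library, with edgeR adjusted p from 0.0571 to 0.180. It was also lost with RLE factors (0.0506), without the filter on low counts (0.0506), with limma-voom (0.1248) and with limma on the normalized table (0.0892). Of 12 Schwann cell markers 12 were tested and 0 were called by edgeR, 5 at an unadjusted p under 0.05, with sums of 69.5 to 78.8 CPM in mutants and 63.4 to 66.5 CPM in controls and a median log2 fold change of 0.27. Among them, Sox10, S100b and Mal were higher in mutants and Mbp, a myelin gene, lower (6.97 ± 0.963 CPM in mutants, 9.75 ± 0.296 CPM in controls; SD, n = 3 each). Log2 fold changes were also negative for Ncmap (-0.44) and Fabp7 (-0.15). Markers of dental follicle and periodontal ligament summed to 1818 to 2125 CPM in mutants and 1183 to 1419 CPM in controls, and 3 of 8 were called higher (Postn, Col14a1 and Igfbp3). Dental mesenchyme markers summed to 599 to 614 CPM in mutants and 504 to 533 CPM in controls, and 1 of 8 was called higher (Prrx1). Macrophage markers summed to 357 to 478 CPM in mutants and 264 to 353 CPM in controls, and 1 of 8 was called higher (Cd68, edgeR adjusted p = 0.0498). Erythroid markers summed to 2366 to 5510 CPM in mutants and 1423 to 1948 CPM in controls, and 0 of 6 tested were called. Endothelial markers summed to 307 to 324 CPM in mutants and 264 to 306 CPM in controls, and 0 of 8 were called. The lowest mutant sum (306.9 CPM) and the highest control sum (306.3 CPM) of this list were almost equal. Mural cell (pericyte and smooth muscle) markers overlapped, at 575 to 607 CPM in mutants and 531 to 593 CPM in controls. Of these, 1 of 8 was called higher (Myh11, edgeR adjusted p = 0.0499). Of 10 epithelial markers 1 was called lower (Amelx, edgeR adjusted p = 0.0470). The part of any of these cell types in the levels of Tac1, Bdnf and the other genes was not tested.

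**Figure D4:**
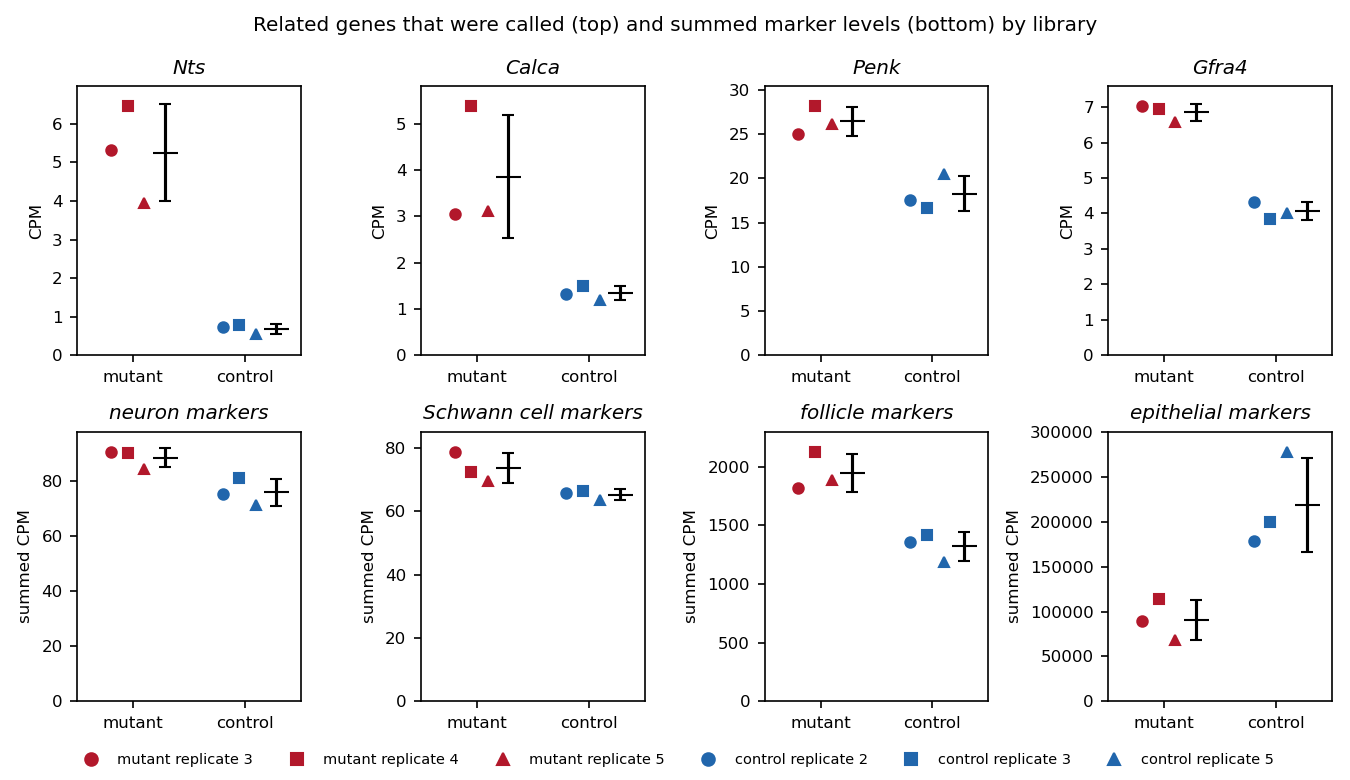
Level (CPM, axes from 0) of 4 called related genes (top) and summed level of 4 marker lists (bottom) by library, with mutants at left and black bars for the mean ± SD of 3 libraries. Nts stands at 3.95 to 6.46 CPM in mutants and 0.544 to 0.796 CPM in controls, and the marker sums of neurons, Schwann cells, follicle and epithelium also separate the groups. Sums not shown separated the groups for dental mesenchyme, macrophage, erythroid, autonomic and endothelial markers. The separation was slight for endothelial markers (lowest mutant 306.9 CPM, highest control 306.3 CPM) and macrophage markers (357 and 353 CPM). Those of odontoblast, sensory neuron and mural cell markers overlapped.

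The genes most like each of the 8 in their pattern were taken by the Pearson correlation of log2(CPM + 1) over the 6 libraries, as a description, for the 6 of the 8 genes that averaged 5 CPM or more. For Tac1 they were Pcsk6, Elovl2 and Spock1, with r = 0.996, 0.995 and 0.993. For Ntrk2 they were Slc4a2, Avpi1 and Tollip, and for Ntrk3 they were Cklf, St6galnac6 and Slc9a5, with r from 0.992 to 0.995. For Gdnf they were Ybx1-ps2, Ldb1 and Ptar1, for Gfra1 Ocln, Cd55b and Ing4, and for Ret Snrpb2, Bglap3 and Fcgr2b. Of the 14054 genes compared, r was over 0.95 for 139 with Tac1, 111 with Ntrk2, 56 with Gdnf, 46 with Ret, 36 with Gfra1 and 23 with Ntrk3.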

How the data were processed

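The sources used here give neither the library kit nor its strand. Sequencing was single-end on a NextSeq500, per the labels' protocols. STAR 2.6.1d and Partek were used on mm10, per the submitters' processing notes, with no role or order stated. The authors deposited a table of expected counts (estimated read counts, not all whole) for 22287 genes and a table of normalized signal for 18665 genes. In the second, each value equals the expected count plus 1, multiplied by a factor of its library (largest relative deviation 7.15e-06); it served for 1 alternative. Before testing, each expected count was rounded.

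The edgeR package (4.0.16, in R 4.3.3) supplied the filter (filterByExpr), the TMM factors and the quasi-likelihood test. Adjusted p-values are Benjamini-Hochberg values over the 17305 genes that passed. Log2 fold changes are mutant minus control. Counting intervals and counting error cover counting only. Groups came from the genotype label and replicate numbers from the titles. Replicates differed by far more than counting noise (chi-square over its degrees of freedom, 22.6 to 41.5), so no library was a copy. The scripts were tested on simulated data.

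The 8 genes and all gene lists were chosen with earlier results of these data known. The rule for named genes took the 8 genes, Arid1a, Gli1, each called gene of the 5 related lists with the 3 most abundant of each list, and 3 pattern neighbours; marker genes are mostly given as sums. Ntf5, Ngfr, Sorcs2, Gfra3, Ncam1, Calcb, Sst, Gal, Nmb, Gap43, Syt1, Stmn2, Snap25, Elavl4 and the low markers were named after their values were seen. Alternatives were other scalings, filters and tools (DESeq2 1.42.0, limma 3.58.1), a prior count of 2, an adjusted p under 0.1, a block on the replicate number and each library left out in turn. Promoter sequences are from RefSeq (GRCm38.p6). Some items are not reported here.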

Additional observations from a re-analysis of the deposited data

How the results depend on the processing

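Across all genes 322 were called (114 higher, 208 lower), and the number was 520 with library totals alone (411 higher, 109 lower), 874 with DESeq2, 113 with limma on the normalized table, 90 with the replicate block and 672 at an adjusted p under 0.1. With library totals the median gene had a log2 fold change of 0.21, against 0.01 with TMM. Without 1 library the number called ran from 11 (without control replicate 2) to 243 (without mutant replicate 3), and from 33 to 78 for the other 4 fits that moved by over 1.5 times. Among the 8 genes the number called was 1, and it was 2 with library totals or at an adjusted p under 0.1, 0 with the replicate block and 0 to 1 without 1 library. Among the related genes it was 5, and it was 8 with library totals, 11 with DESeq2 (10 higher and 1 lower, Sorcs2), 3 with limma-voom, 1 with the replicate block (Nts), 9 at an adjusted p under 0.1 (8 higher and 1 lower, Sorcs2) and 0 to 3 without 1 library. Fits with fewer libraries, and the block with its extra terms, have fewer degrees of freedom; the cause of the other shifts was not tested. Replicate numbers 3 and 5 occur in both groups, and the deviations of same-numbered libraries correlated at 0.267 and -0.144 across genes, against -0.447 to 0.3 for the other 7 mutant-control pairs. These values do not show that the numbers pair the libraries, and a batch shared by libraries of number 3 was not tested. The block ended the calls of Tac1 (log2 fold change 1.26), Arid1a (edgeR adjusted p = 0.0769), Pcsk6 (0.186), Gfra4 (0.299), Calca (0.254) and Penk (0.324). Signs of small differences turned under some settings. With library totals, log2 fold changes were 0.13 for Ntrk2, 0.15 for Ntrk3, 0.18 for Kidins220, 0.022 for Maged1, 0.17 for Gfra2 and 0.065 for Tacr1. With the replicate block they were 0.21 for Ntrk3, -0.051 for Gfra1, -0.084 for Furin, 0.020 for Gfra2 and -0.028 for Ngfr. Without 1 library Ntrk2 ran from -0.34 to 0.11, Ntrk3 from -0.26 to 0.18, Kidins220 from -0.30 to 0.18, Gfra2 from -0.18 to 0.080, Furin from -0.014 to 0.14, Ngfr from -0.14 to 0.26, Ptn from -0.011 to 0.22 and Ece1 from -0.21 to 0.81. No other sign of the 8 genes turned. The correlations and ratios within libraries were not recomputed under the alternatives. Depth limits Bdnf and Ntf3 most, at 18 to 54 counts a library.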
